A study of Mus musculus with 20 samples.

Results

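The genes described here are 40 genes of DNA replication and nucleotide synthesis, listed by name and found by their symbols among the 17787 genes of the deposited table. They cover 9 roles: origin licensing (4 genes), the MCM helicase and MCM-named factors (8), Cdc45 and the GINS complex (5), primase and the replicative polymerases (6), the sliding clamp and its loader (5), the single-strand binding protein RPA (2), lagging strand maturation (2), nucleotide synthesis (5) and chromatin factors that act at the fork (3). RNA was sequenced from bone marrow-derived macrophages of wild-type male C57BL/6J mice, 20 libraries in 6 groups. Brg1 siRNA cells received vehicle (3 libraries), LPS (3) or Dex+LPS (4), and so did control siRNA cells, with the same numbers of libraries. Brg1, encoded by Smarca4, is an ATPase that drives the BAF complex, a remodeller of nucleosomes, LPS is the bacterial lipopolysaccharide that activates macrophages, and Dex (dexamethasone) is a synthetic glucocorticoid.

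Per the labels, marrow was flushed from the bones, freed of erythrocytes, separated on Ficoll and cultured for 7 days with L929 cell supernatant, a source of the macrophage growth factor M-CSF. Both arms were transfected, with 50 nM of a single siRNA product each, for 48 h in medium without serum. The treatments covered the last 6 h, with LPS at 100 ng/ml and Dex at 1 µM, and the ethanol and saline carriers in the vehicle group. The knockdown therefore rests on 1 siRNA product and was compared with 1 control product, and the cells were a bulk culture. Neither the age of the mice nor whether replicates were separate animals or separate cultures is stated, so p-values here speak of the spread among these libraries alone, which may be technical.

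Replication starts at origins that the origin recognition complex marks and at which Cdc6 and Cdt1 load the MCM helicase. Cdc45 and GINS then turn the helicase on, primase and polymerase alpha lay the first primers, and polymerases delta and epsilon extend them on a clamp that replication factor C loads. Ribonucleotide reductase, thymidylate synthase and thymidine kinase supply the deoxynucleotides, and most of these genes are known as E2F targets that are transcribed as cells approach S phase. Cultured bone marrow macrophages divide in response to M-CSF, and LPS is known to stop their proliferation.

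Values are normalized reads, that is, read numbers per gene divided by a size factor of the library, as the authors deposited them. Depth was 13.69 to 18.71 M reads a library. The test was limma on log2(normalized reads + 1) over the 12061 genes with 10 or more in at least 3 libraries, and a gene was called at a Benjamini-Hochberg adjusted p under 0.05. All 40 genes passed that filter, each fold change is on this scale, and an error after ± is a standard error of a log2 difference unless it is named as an SD. Smarca4 was lower in every Brg1 siRNA library than in every control library of the same treatment, at -2.12 in vehicle, -2.28 in LPS and -2.10 in Dex+LPS on the log2 scale (limma adjusted p = 1.5e-11, 3.76e-12 and 1.31e-12). All 10 macrophage markers of a list were found. Their summed level was 404900 to 414500 with Brg1 siRNA, against 307100 to 317600 with control siRNA in vehicle, 521300 to 535400 against 326300 to 345200 in LPS, and 447000 to 457300 against 330200 to 366900 in Dex+LPS. Lyz2 and Mpeg1 made up most of these sums and of their difference (Lyz2 200859 with Brg1 siRNA against 142359 with control siRNA in vehicle, Mpeg1 114047 against 70701), whereas Cd14 (2604 against 3944), Csf1r (24756 against 29199), Adgre1 (27804 against 29910) and Itgam (7798 against 7873) had the lower mean with Brg1 siRNA there. The defining neutrophil, B cell and mast cell markers Ly6g, Mpo, Elane, Cd79a and Cpa3 were at or near 0 in every group, but other genes of the same lists were not. The 7 neutrophil markers summed to 79.76 to 89.53 with Brg1 siRNA against 50.22 to 89.13 with control siRNA in vehicle, 234.4 to 264.2 against 209.7 to 240.6 in LPS and 457.1 to 533.1 against 315.2 to 441.4 in Dex+LPS, with S100a8, S100a9 and Camp up to group means of 407, 89.2 and 39.6. Of the B cell markers Cd79b reached a mean of 19.1.

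Of 5 T and NK cell markers 2 were in the table, and Cd4 averaged 142.94 normalized reads with Brg1 siRNA against 72.97 with control siRNA in vehicle, 122.14 against 33.32 in LPS and 80.96 against 20.24 in Dex+LPS. The 5 progenitor markers summed to 134.7 to 151.7 with Brg1 siRNA against 115.5 to 171.3 with control siRNA in vehicle, to 2209 to 2592 against 2701 to 2873 in LPS and to 1735 to 2036 against 2224 to 2566 in Dex+LPS. Gfi1 alone made up nearly all of the LPS and Dex+LPS sums, with means of 2247 against 2649 in LPS and 1825 against 2403 in Dex+LPS. Kit, which is also on the mast cell list, averaged 119 with Brg1 siRNA against 121 with control siRNA in vehicle, 154 against 76.8 in LPS and 22.7 against 2.39 in Dex+LPS, and Cd34 averaged 17.4 against 14.7, 46.6 against 40.6 and 28.1 against 18.6. The part of these marker levels in the results below was not tested. The library numbers in the labels fall into 2 ranges, and 4 libraries carry the higher range: replicate 2 of Brg1 siRNA with LPS, replicate 4 of Brg1 siRNA with Dex+LPS, replicate 3 of control siRNA with LPS and replicate 4 of control siRNA with Dex+LPS. Results without these 4 are given beside the counts.

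The start regions of these genes were read for spellings of the E2F site, since E2F factors are the known regulators of most replication genes. RefSeq (GRCm38.p6) gave a window from 250 bases before to 50 after the start for 33 of the 40 genes, and Gins1, Gins2, Gins4, Mcm4, Pole, Prim2 and Rfc2 were not matched. The 4 spellings searched on both strands were TTTCCCGC, TTTGGCGC, TTTCGCGC and TTTGCCGC. At least 1 of them lay in a window of 14 of the 33 genes, 42.4%, against 2.60% of all 27025 genes in the RefSeq promoter table. The 33 genes had 38 windows, so some had more than 1. Counted by window and not by gene, the share was 2.26% of all 32851 windows. It was 3.44% of the 10395 windows with a like share of G and C (53.2 to 65.5%). The 14 genes were Orc1, Cdc6, Cdt1, Mcm3, Mcm5, Mcm6, Mcm7, Mcm8, Gins3, Pola1, Pold1, Rfc3, Lig1 and Uhrf1. Stretches of 7 of them are shown because they carry the site before or at the start and span the licensing, helicase, polymerase and clamp loader roles. Capitals mark an E2F spelling on either strand, read as the coding strand of the gene, 5′ to 3′, and where 2 spellings overlap the capitals run through both.

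Mcm6: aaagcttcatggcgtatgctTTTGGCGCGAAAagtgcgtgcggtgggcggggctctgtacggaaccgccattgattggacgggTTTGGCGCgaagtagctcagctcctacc
Mcm5: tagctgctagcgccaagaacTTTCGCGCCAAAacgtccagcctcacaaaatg
Orc1: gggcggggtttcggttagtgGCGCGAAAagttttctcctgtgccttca
Cdc6: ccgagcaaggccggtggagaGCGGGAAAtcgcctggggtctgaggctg
Gins3: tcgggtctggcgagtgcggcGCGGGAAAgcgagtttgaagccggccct
Pola1: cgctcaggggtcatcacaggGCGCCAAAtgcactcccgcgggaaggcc
Rfc3: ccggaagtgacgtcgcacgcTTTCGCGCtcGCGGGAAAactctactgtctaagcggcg

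The stretch of Mcm6 lies at chr1:128359725-128359835, minus strand, and that of Mcm5 at chr8:75109336-75109387, plus strand. Orc1 is shown at chr4:108579407-108579454, plus strand, Cdc6 at chr11:98907993-98908040, plus strand and Gins3 at chr8:95633498-95633545, plus strand. Pola1 is shown at chrX:93632266-93632313, minus strand, and Rfc3 at chr5:151651181-151651238, minus strand. Mcm6 held 3 spellings, 2 of them overlapping on opposite strands, and Mcm5 and Rfc3 held 2 each. In all, 20 sites were counted in the 14 genes, between 181 bases before and 43 bases after the start, 12 of them before the start and 12 within 100 bases of it. With only the spellings TTTCGCGC and TTTGGCGC, 11 of the 33 genes held a site, 33.3%, against 0.929% of all genes. The CCAAT box (CCAAT) was found in 63.6% of the 33 genes and 41.1% of all genes, the GC box (GGGCGG) in 75.8% and 38.2%, and the CHR element (TTTGAA or TTCGAA) in 18.2% and 21.7%. A match is a spelling in the sequence and says nothing of binding.

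**Figure D1:**
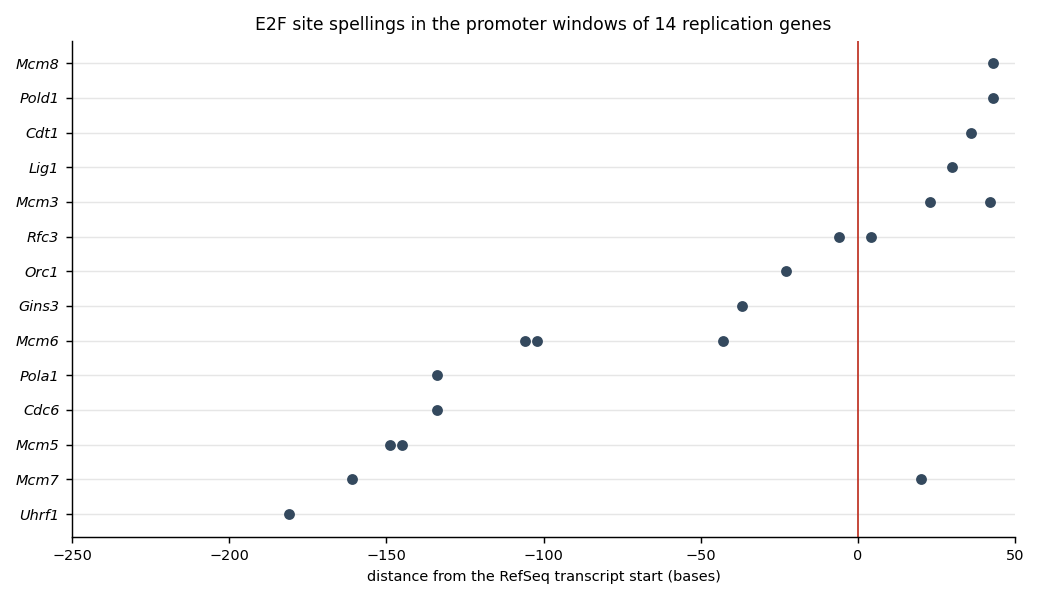
Positions of the 20 E2F spellings in the start windows of 14 replication genes, as distance in bases from the RefSeq start (0), with negative distances before the start. Each point is 1 spelling, and 12 of the 20 lie before the start.

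Relative to the control siRNA vehicle group, most of the 40 genes were lower in every other group. The median gene stood at 64% of that level in Brg1 siRNA vehicle cells, with 35 of 40 under 100%. In LPS the median was 23% with Brg1 siRNA and 28.5% with control siRNA, with 38 of 40 under 100% in each. In Dex+LPS the medians were 31.1% with Brg1 siRNA and 44.2% with control siRNA, with 38 and 35 of 40 under 100%. The genes spread widely around these medians: the range over genes was 32.6 to 160% in Brg1 siRNA vehicle cells, 2.67 to 131% against 4.81 to 120% in LPS, and 7.67 to 132% against 12.6 to 149% in Dex+LPS. The lowest in LPS was Rrm2 in both arms, the small subunit of ribonucleotide reductase.

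The 40 genes together held 0.101 to 0.104% of the reads of a library in Brg1 siRNA vehicle cells, against 0.138 to 0.15% in control siRNA vehicle cells. The shares were 0.027 to 0.0278% against 0.0295 to 0.0305% in LPS and 0.0354 to 0.0372% against 0.044 to 0.0497% in Dex+LPS. By share, Brg1 siRNA libraries lay below all control libraries of their treatment in each case. In summed normalized reads the same held in vehicle and in Dex+LPS, but in LPS the arms overlapped, at 5186 to 5542 with Brg1 siRNA against 5238 to 5515 with control siRNA. Without Pcna, which alone carried a large part of these reads, the shares were 0.0524 to 0.0541% against 0.0787 to 0.0862% in vehicle, 0.0124 to 0.0136% against 0.0168 to 0.017% in LPS and 0.021 to 0.0242% against 0.029 to 0.0327% in Dex+LPS, again without overlap. In a bulk culture, fewer cells in S phase and less of these RNAs in each cell cannot be told apart.

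**Figure D2:**
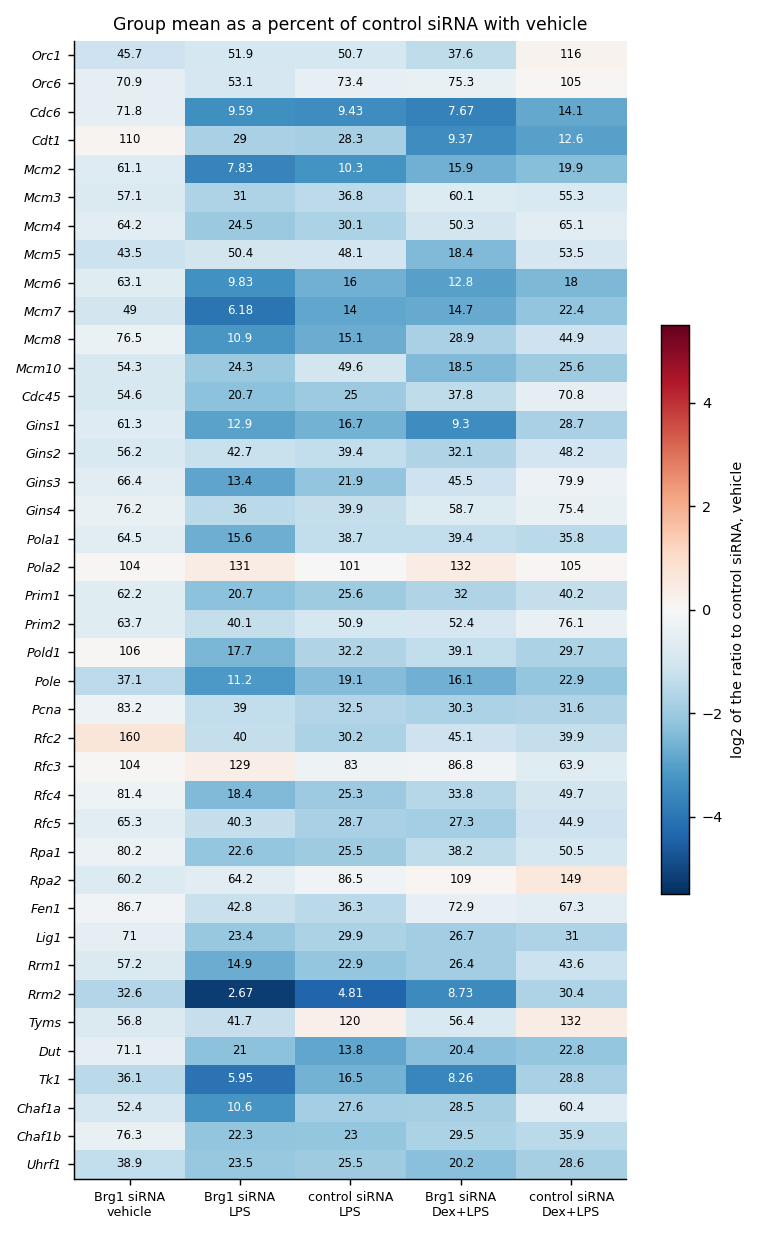
Group mean of each of the 40 genes as a percent of its mean in control siRNA vehicle cells, printed in each cell of the grid; colour is the log2 ratio to that group. Genes run down by role and the groups across. Most cells are under 100, and the lowest value, 2.67, is Rrm2 in Brg1 siRNA cells with LPS.

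The first comparison asked what the loss of Brg1 did to these genes within each treatment. In vehicle, 22 of the 40 genes fell and none rose by limma, where 10.8% of all genes tested were called lower and 9.39% higher. At an unadjusted p under 0.05, 26 were lower and 1 higher (Rfc2), and of the rises edgeR called 0 and DESeq2 1 on the whole read numbers recovered from the normalized values. In LPS, 13 fell and 3 rose, where 15.8% of all genes were called lower and 17.3% higher. In Dex+LPS, 19 fell and 2 rose, against 15.3% lower and 19.0% higher among all genes. The median log2 difference of the 40 genes was -0.64 in vehicle, -0.32 in LPS and -0.49 in Dex+LPS, and that of all genes tested was 0.01 in each. The 40 genes ran between -1.61 (Rrm2) and 0.68 (Rfc2, not called) in vehicle, between -1.52 (Tyms) and 0.63 (Rfc3) in LPS and between -1.80 (Rrm2) and 0.44 (Rfc3) in Dex+LPS. Without the 4 libraries of the higher number range, 23, 13 and 20 genes were called lower and 0, 3 and 1 higher in vehicle, LPS and Dex+LPS.

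A set of 10 genes fell in all 3 treatments: Orc6, Mcm4, Mcm6, Mcm10, Rpa2, Rrm1, Rrm2, Tyms, Tk1 and Chaf1a. Of all genes tested at most 10.8%, the share called lower in vehicle, can have fallen in all 3. Another 7 fell in 2 treatments (Mcm7, Cdc45, Gins3, Gins4, Pola1, Prim2 and Rpa1) and 10 in 1 (Mcm3, Mcm8, Gins1, Gins2, Prim1, Pole, Pcna, Rfc4, Rfc5 and Uhrf1). How many of all genes fell in 2 treatments or in 1 was not counted, so the 7 and the 10 are not read as a result. Pola2 and Rfc3 rose in LPS and in Dex+LPS, and Pcna rose in LPS and fell in vehicle. The remaining 11 were called by limma in none of the 3: Orc1, Cdc6, Cdt1, Mcm2, Mcm5, Pold1, Rfc2, Fen1, Lig1, Dut and Chaf1b. Of these, other fits called Mcm2 and Rfc2 in vehicle (values with each gene), Chaf1b in vehicle with only the compared groups in the fit (adjusted p = 0.0282) and Pold1 in LPS with the number range as a term (0.0213). The 3 comparisons share no libraries, and across the 40 genes their log2 differences correlated at r = 0.49 (rho = 0.50) between vehicle and LPS, 0.70 (0.65) between vehicle and Dex+LPS and 0.46 (0.41) between LPS and Dex+LPS, a description over genes that are not independent.

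Leaving out each library in turn kept 12 of the 22 falls in vehicle in every run, 7 of 13 in LPS and 16 of 19 in Dex+LPS, and of the rises 1 of 3 in LPS (Rfc3) and 0 of 2 in Dex+LPS. Mcm6, Mcm10, Rrm1, Tk1 and Chaf1a kept their falls in all 3 treatments through every such run. In vehicle the number called lower ran between 13 and 17, at 13 without control siRNA vehicle replicate 1. Some genes gained a call when 1 library was left out. In LPS these were Mcm3 (-0.38, adjusted p = 0.0474) and Fen1 (0.39, 0.0362) without Brg1 siRNA replicate 1, Dut (0.90, 0.0131) without Brg1 siRNA replicate 2, and Prim2 (-0.52, 0.0063) without control siRNA replicate 3. In Dex+LPS they were Gins2 (-0.73, adjusted p = 0.0348), Cdc6 (-1.54, 0.0173) and Uhrf1 (-0.72, 0.0493) without Brg1 siRNA replicate 1, 2 and 3 in that order, and Cdt1 (-0.70, 0.0276) and Mcm5 (-2.41, 0.0364) without Brg1 siRNA replicate 4. Leaving out control siRNA replicate 3 also gave Cdt1 a call there (-0.67, adjusted p = 0.0408), and leaving out control siRNA replicate 4 gave Mcm7 one (-0.71, 0.0499). The size factors of the authors centre the typical gene, and with library totals in their place the median of all genes shifted, with values of -0.13 in LPS and -0.10 in Dex+LPS. With that scaling 22, 17 and 21 of the 40 genes were called lower in vehicle, LPS and Dex+LPS, and 0, 1 and 0 higher. Among all genes called, the share called higher was 52.3% in LPS and 55.4% in Dex+LPS, and 31.4% and 36.7% with library totals.

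**Figure D3:**
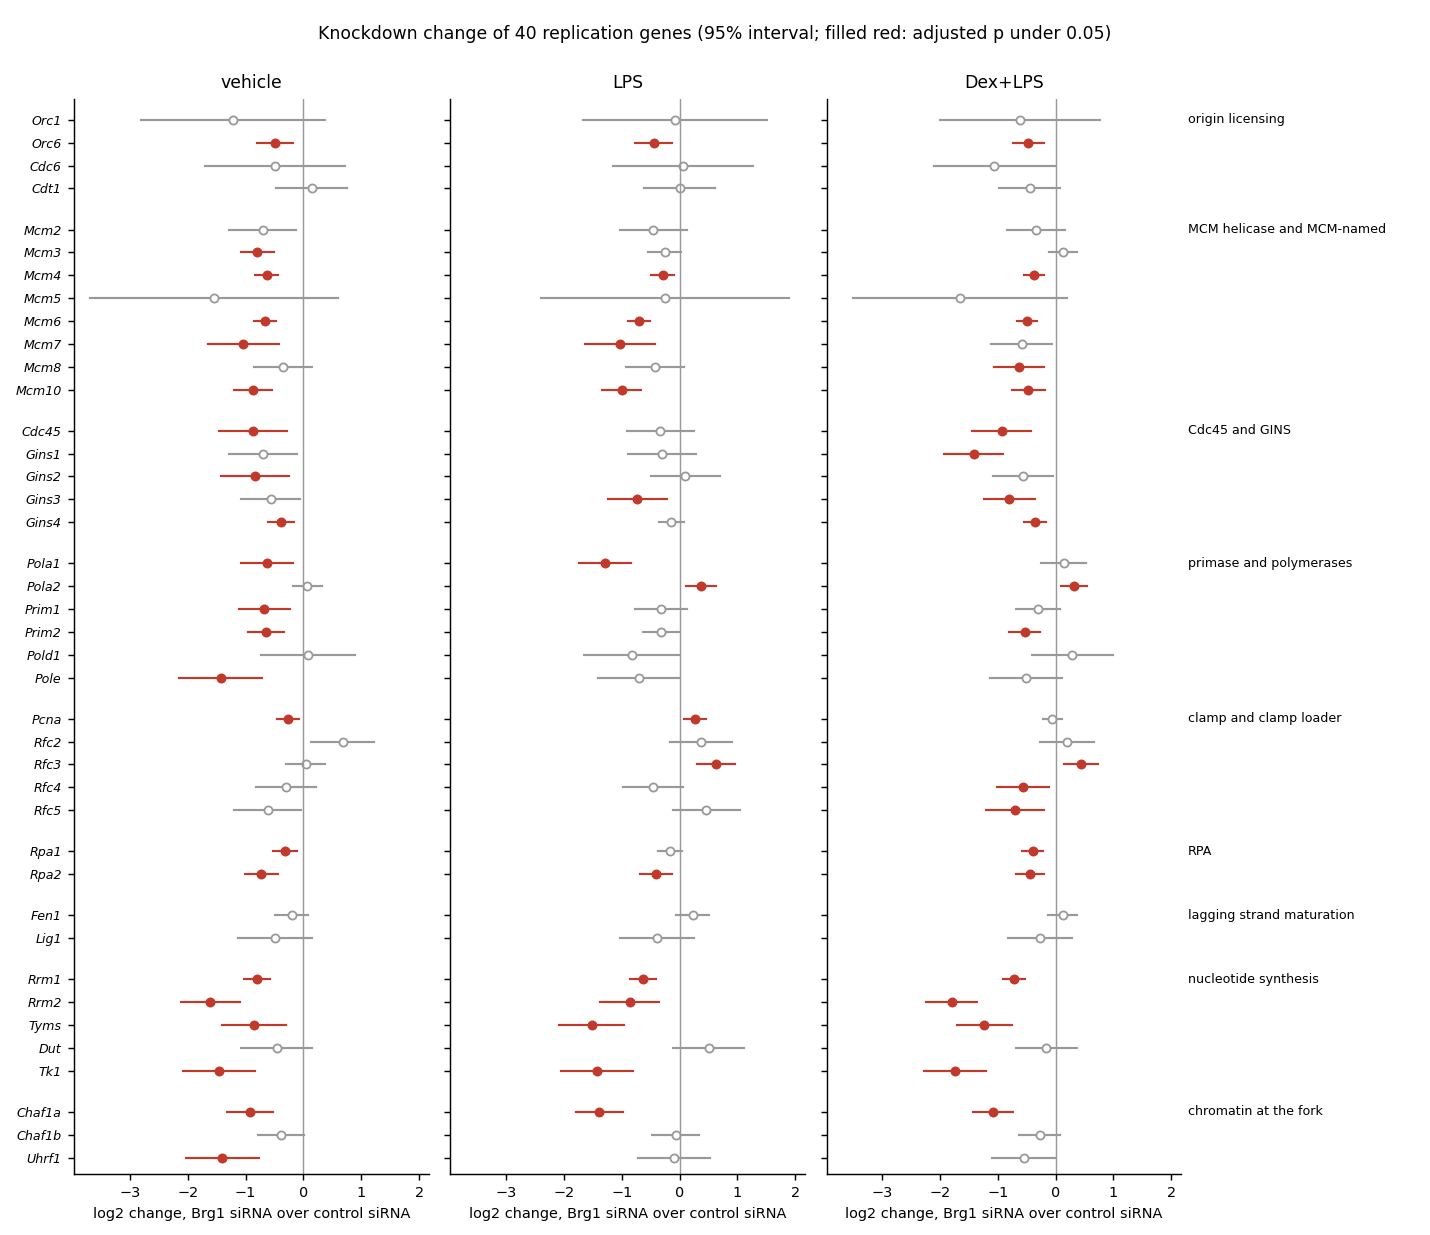
Log2 difference of Brg1 siRNA against control siRNA for the 40 genes, by role, in vehicle, LPS and Dex+LPS. Points are limma estimates with 95% intervals, filled red where called (22, 16 and 21 genes) and open otherwise; the line at 0 is no difference.

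Genes of nucleotide synthesis fell in every treatment, with 4 of the 5 called lower in each and median log2 differences of -0.85, -0.86 and -1.23 in vehicle, LPS and Dex+LPS. Beside the counts by role here and below, 10.8%, 15.8% and 15.3% of all genes were called lower in these treatments. Called higher were 9.39%, 17.3% and 19.0%. Rrm1 and Rrm2 encode the large and small subunits of ribonucleotide reductase, which turns ribonucleotides into deoxyribonucleotides. Rrm2 had 132, 147 and 115 normalized reads in the Brg1 siRNA libraries with vehicle, against 421, 441 and 346 in the control siRNA libraries. In LPS, Rrm2 had 6.23, 11.2 and 14.8 with Brg1 siRNA, against 21.4, 18.5 and 18.2 with control siRNA. In Dex+LPS, Rrm2 had 37.7, 23.4, 40.6 and 38.8 with Brg1 siRNA, against 133, 108, 123 and 125 with control siRNA. Every Brg1 siRNA library was below every control library in all 3 treatments. Log2 differences of Rrm2 were -1.61 ± 0.24 in vehicle, -0.86 ± 0.24 in LPS and -1.80 ± 0.21 in Dex+LPS (SE; limma adjusted p = 8.86e-05, 0.00992 and 2.47e-06), which is 3.05-fold lower in vehicle. In LPS both arms were near the bottom of the range, and without Brg1 siRNA LPS replicate 1 the difference there was -0.55 (adjusted p = 0.0662), no longer called. In Dex+LPS, Brg1 siRNA cells held 8.73% of the control vehicle level of Rrm2 and control siRNA cells 30.4%. About 12.0% of the Rrm2 transcript sequence, counted in words of 31 bases, also occurs in 13 other genes, the largest share (4.45%) in the predicted gene Gm48455, so reads could be split among them.

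With vehicle, Rrm1 was at 541, 520.0 and 526 normalized reads in Brg1 siRNA cells, against 952, 902 and 921 in control siRNA cells. With LPS, Rrm1 was at 125, 123 and 166 in Brg1 siRNA cells, against 227, 219.8 and 190.4 in control siRNA cells. With Dex+LPS, Rrm1 was at 228, 252, 268 and 229.9 in Brg1 siRNA cells, against 399.6, 372, 444 and 397 in control siRNA cells. Rrm1 groups were apart in all 3 treatments, with Brg1 siRNA lower. Log2 differences of Rrm1 were -0.81 ± 0.11 in vehicle, -0.63 ± 0.11 in LPS and -0.72 ± 0.09 in Dex+LPS (SE; limma adjusted p = 2.68e-05, 0.000201 and 8.8e-06), and every one of these calls held when any 1 library was left out. Tk1 encodes the cytosolic thymidine kinase of the salvage pathway and had the largest mean knockdown change of the 40 genes. Tk1 in vehicle gave 81.3, 61.8 and 63.9 normalized reads with Brg1 siRNA, against 213, 198 and 163 with control siRNA. Tk1 in LPS gave 9.97, 16.2 and 7.96 with Brg1 siRNA, against 30.4, 25.5 and 38.5 with control siRNA. Tk1 in Dex+LPS gave 11.4, 13.4, 23.5 and 14.8 with Brg1 siRNA, against 37.2, 47.0, 72.2 and 63.5 with control siRNA. All 10 Brg1 siRNA libraries were below all control libraries of their own treatment. Log2 differences of Tk1 were -1.46 ± 0.29 in vehicle, -1.43 ± 0.29 in LPS and -1.74 ± 0.25 in Dex+LPS (SE; limma adjusted p = 0.00145, 0.00104 and 3.35e-05), a fold of 2.75, 2.69 and 3.34 lower. In LPS no library held more than 38.5 normalized reads of Tk1.

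Tyms, which makes thymidylate, is named here after its values were seen. Tyms had 86.9, 84.4 and 48.6 normalized reads in the Brg1 siRNA libraries with vehicle, against 138, 120.2 and 129 in the control siRNA libraries. In LPS, Tyms had 56.1, 36.1 and 69.3 with Brg1 siRNA, against 148, 201 and 117 with control siRNA. In Dex+LPS, Tyms had 91.5, 66.9, 54.5 and 78.5 with Brg1 siRNA, against 141, 190.2, 191 and 161 with control siRNA. The groups did not overlap in any treatment, with Brg1 siRNA lower. Log2 differences of Tyms were -0.85 ± 0.26 in vehicle, -1.52 ± 0.26 in LPS and -1.23 ± 0.23 in Dex+LPS (SE; limma adjusted p = 0.0276, 0.000217 and 0.000372). In vehicle the call was lost without control siRNA replicate 1, 2 or 3 or Brg1 siRNA replicate 3, with an adjusted p of up to 0.167, and in LPS and Dex+LPS it held in every run. Tyms in LPS stood at 41.7% of the control vehicle level with Brg1 siRNA and at 120% with control siRNA. Of the Tyms sequence, 9.82% also occurs in other genes, with 5.23% of the Tyms sequence in the pseudogene Tyms-ps. Dut, the enzyme that clears dUTP, was the exception among the 5, with log2 differences of -0.46, 0.50 and -0.16 and adjusted p of 0.31, 0.204 and 0.664. Its level in LPS and Dex+LPS was low, with group means between 14.2 and 23.4 normalized reads.

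**Figure D4:**
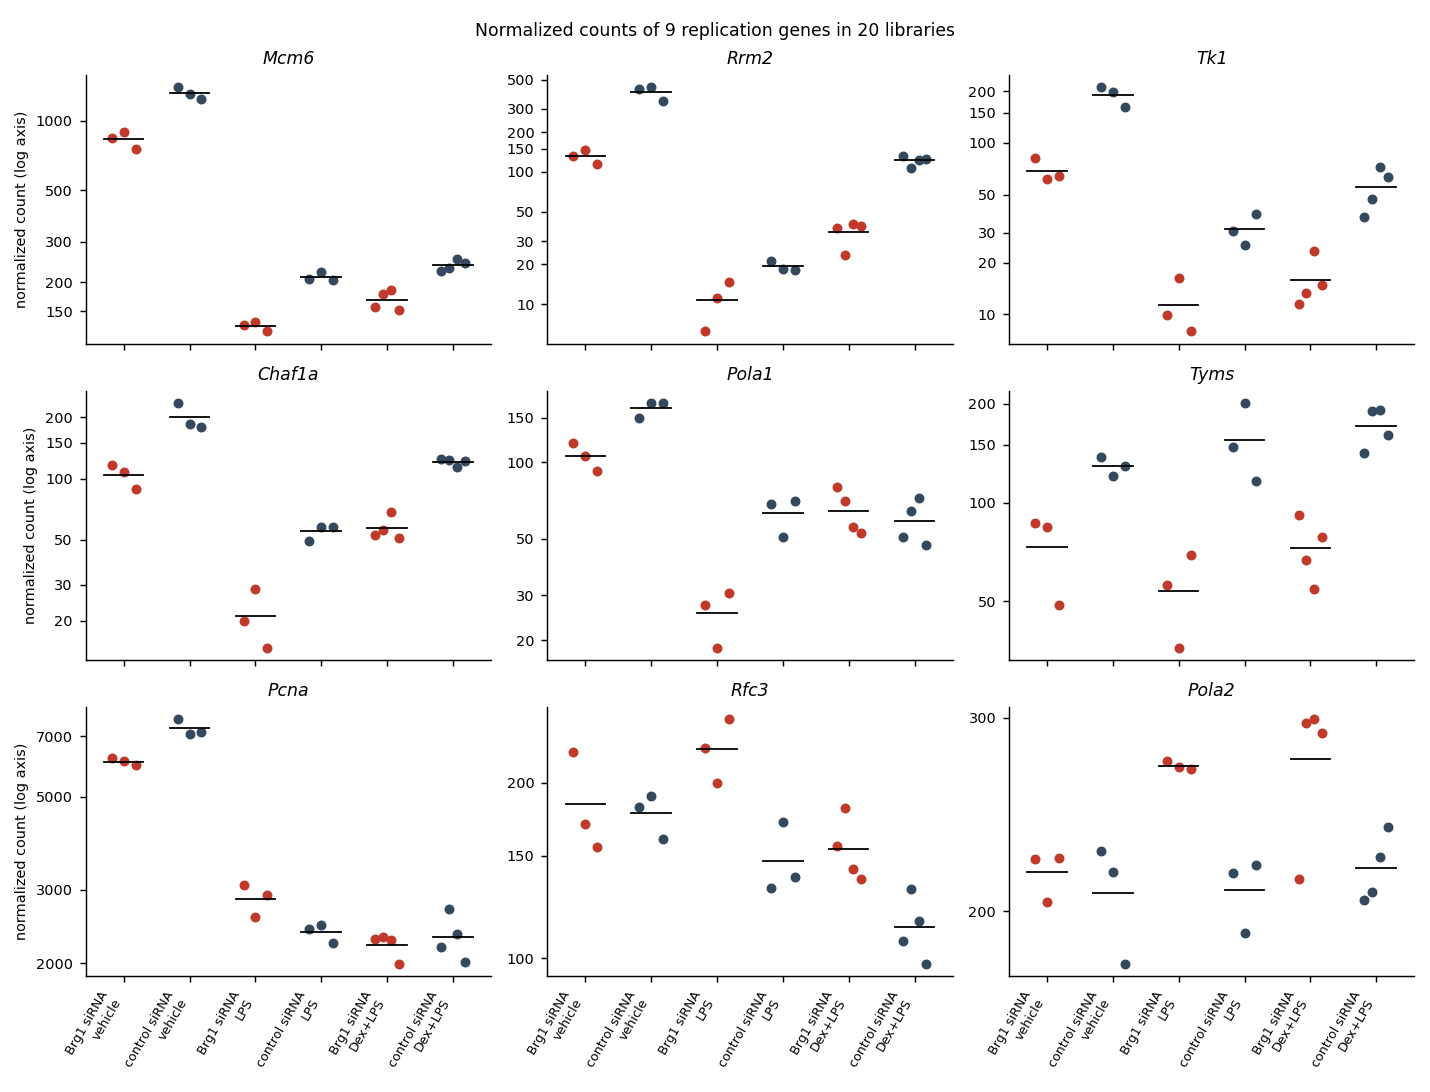
Normalized reads of 9 genes in each library on a log axis, Brg1 siRNA in red left of control siRNA in dark for vehicle, LPS and Dex+LPS; each point is 1 library (n = 3, 3 and 4) and each line a group mean. Mcm6, Rrm2, Tk1, Chaf1a and Tyms do not overlap between arms in any treatment, and Rfc3 is higher with Brg1 siRNA in LPS and Dex+LPS.

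Of the 8 MCM genes, 5 fell in vehicle, 4 in LPS and 4 in Dex+LPS, with medians of -0.75, -0.44 and -0.48 on the log2 scale. Mcm2 to Mcm7 form the ring helicase, Mcm8 acts in homologous recombination, and Mcm10 helps the helicase start. With vehicle, Mcm6 was at 844, 895 and 755 normalized reads in Brg1 siRNA cells, against 1403, 1310.1 and 1238 in control siRNA cells. With LPS, Mcm6 was at 131, 135 and 123 in Brg1 siRNA cells, against 206, 222 and 205 in control siRNA cells. With Dex+LPS, Mcm6 was at 157, 178, 186 and 151 in Brg1 siRNA cells, against 224, 229.8, 252 and 243 in control siRNA cells. Brg1 siRNA libraries lay below the control libraries in every treatment, and the spread within each group was small. Log2 differences of Mcm6 were -0.66 ± 0.09 in vehicle, -0.70 ± 0.09 in LPS and -0.50 ± 0.08 in Dex+LPS (SE; limma adjusted p = 3.85e-05, 1.18e-05 and 8.78e-05). Mcm6 kept these calls in every run with 1 library left out, and its start region carries 3 of the E2F spellings shown above.

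Mcm3 in vehicle gave 279, 287 and 307 normalized reads with Brg1 siRNA, against 576, 496 and 457 with control siRNA. Mcm3 in LPS gave 187, 136 and 151 with Brg1 siRNA, against 199.5, 168 and 196 with control siRNA. Mcm3 in Dex+LPS gave 270.0, 294, 330.2 and 329.6 with Brg1 siRNA, against 234, 314, 273 and 307 with control siRNA. The groups were apart in vehicle, where Brg1 siRNA was lower, and overlapped in LPS and in Dex+LPS. Log2 differences of Mcm3 were -0.80 ± 0.13 in vehicle, -0.26 ± 0.13 in LPS and 0.12 ± 0.12 in Dex+LPS (SE; limma adjusted p = 0.000269, 0.159 and 0.451), of which the fall in vehicle alone was called. The difference between the knockdown effects in LPS and vehicle, tested as an interaction, was 0.55 ± 0.19 for Mcm3 (adjusted p = 0.0752) and was not called. Mcm10 was among the genes that fell in each treatment. Mcm10 had 77.3, 71.9 and 85.3 normalized reads in the Brg1 siRNA libraries with vehicle, against 138, 157 and 137 in the control siRNA libraries. In LPS, Mcm10 had 36.2, 34.9 and 34.1 with Brg1 siRNA, against 68.8, 68.3 and 77.0 with control siRNA. In Dex+LPS, Mcm10 had 20.6, 26.8, 34.2 and 24.9 with Brg1 siRNA, against 37.2, 34.2, 40.7 and 35.2 with control siRNA. Mcm10 libraries of the 2 arms did not overlap in any treatment. Log2 differences of Mcm10 were -0.87 ± 0.16 in vehicle, -1.0 ± 0.16 in LPS and -0.47 ± 0.14 in Dex+LPS (SE; limma adjusted p = 0.000593, 9.27e-05 and 0.0126).

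Mcm4 fell in all 3 treatments too, at -0.63 ± 0.10, -0.29 ± 0.10 and -0.37 ± 0.08 on the log2 scale (SE; limma adjusted p = 9.55e-05, 0.0242 and 0.00192). Its call in LPS was lost without control siRNA LPS replicate 2 or 3 or Brg1 siRNA LPS replicate 1 or 3, with an adjusted p of up to 0.104. Mcm7 fell in vehicle (-1.04) and in LPS (-1.03), and its difference in Dex+LPS was -0.59 (adjusted p = 0.0795). The Mcm7 calls were lost without control siRNA vehicle replicate 1 or Brg1 siRNA vehicle replicate 2 (adjusted p up to 0.0764) and without control siRNA LPS replicate 1 or Brg1 siRNA LPS replicate 2 (up to 0.0674), and 26.8% of the Mcm7 sequence is shared with 3 other genes, 24.4% with the predicted gene Gm5487. Mcm8 fell in Dex+LPS (-0.63, adjusted p = 0.0244), a call lost without replicate 1 or 3 of either arm in Dex+LPS (adjusted p up to 0.0813). Mcm2 was at -0.71, -0.45 and -0.34 and was not called by limma (adjusted p = 0.0846 in vehicle). Its vehicle libraries did not overlap, at 147, 152 and 159 normalized reads with Brg1 siRNA, against 254, 252 and 245 with control siRNA, and Mcm2 was called lower there by edgeR (adjusted p = 0.0326), by DESeq2 (0.00154), with a pseudocount of 5 (0.0486) and with only the compared groups in the fit (0.00139). Mcm5 held only 0 to 48.2 normalized reads in any library and was not called in these comparisons.

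Of the 4 origin licensing genes, 1 was called in each treatment, with medians of -0.49, -0.04 and -0.54. Of all genes 10.8%, 15.8% and 15.3% were called lower there, so 1 call among 4 genes is not read as a result about the role. Orc6, a subunit of the origin recognition complex, fell in all 3. With vehicle, Orc6 was at 83.7, 94.6 and 95.5 normalized reads in Brg1 siRNA cells, against 149, 118 and 119.7 in control siRNA cells. With LPS, Orc6 was at 66.1, 71.0 and 68.2 in Brg1 siRNA cells, against 90.2, 111 and 82.4 in control siRNA cells. With Dex+LPS, Orc6 was at 101, 99.2, 84.4 and 103 in Brg1 siRNA cells, against 141, 165, 121 and 116 in control siRNA cells. The arms were apart in every treatment, with Brg1 siRNA lower. Log2 differences of Orc6 were -0.49 ± 0.15 in vehicle, -0.45 ± 0.15 in LPS and -0.47 ± 0.13 in Dex+LPS (SE; limma adjusted p = 0.0261, 0.0263 and 0.00798). The vehicle call was lost without control siRNA replicate 1 or Brg1 siRNA replicate 1 or 2 (adjusted p up to 0.137) and the LPS call without control siRNA replicate 2 or Brg1 siRNA replicate 1 or 3 (up to 0.131), while the Dex+LPS call held.

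Cdt1, the loader that brings MCM to origins, was not lower with Brg1 siRNA in vehicle. Cdt1 in vehicle gave 319, 345 and 324 normalized reads with Brg1 siRNA, against 315, 284 and 296 with control siRNA. Cdt1 in LPS gave 91.0, 106 and 62.5 with Brg1 siRNA, against 90.2, 76.4 and 86.6 with control siRNA. Cdt1 in Dex+LPS gave 17.2, 30.1, 20.3 and 44.3 with Brg1 siRNA, against 37.2, 46.0, 22.4 and 44.4 with control siRNA. In vehicle every Brg1 siRNA library was above every control library, and in LPS and Dex+LPS the arms overlapped. Log2 differences of Cdt1 were 0.14 ± 0.29 in vehicle, 0.01 ± 0.29 in LPS and -0.45 ± 0.25 in Dex+LPS (SE; limma adjusted p = 0.809, 0.996 and 0.187), none of them called. Orc1, the origin recognition subunit with ATPase activity, was low and scattered and was not called (-1.22, -0.08 and -0.62). Its value in control siRNA Dex+LPS replicate 3 was 103, against 7.25 to 8.55 in the other 3 libraries of that group. Cdc6, the partner of Cdt1 in loading, was at -0.49, 0.06 and -1.06 (adjusted p = 0.633, 0.954 and 0.11), with group means under 10 normalized reads in LPS and Dex+LPS.

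Cdc45 and the 4 GINS subunits, the parts that activate the helicase, were all negative in vehicle and in Dex+LPS. Of the 5 genes, 3 fell in vehicle, 1 in LPS and 4 in Dex+LPS, with medians of -0.70, -0.30 and -0.80. Gins4 had 261, 263 and 264 normalized reads in the Brg1 siRNA libraries with vehicle, against 371, 346 and 317 in the control siRNA libraries. In LPS, Gins4 had 116, 126 and 131 with Brg1 siRNA, against 131, 150.4 and 132 with control siRNA. In Dex+LPS, Gins4 had 200.2, 206, 211 and 192 with Brg1 siRNA, against 255, 309.9, 239 and 235 with control siRNA. Gins4 groups did not overlap in any treatment, though in LPS the gap between them was narrow. Log2 differences of Gins4 were -0.39 ± 0.10 in vehicle, -0.15 ± 0.10 in LPS and -0.35 ± 0.09 in Dex+LPS (SE; limma adjusted p = 0.0115, 0.306 and 0.00518), called in vehicle and in Dex+LPS. Without control siRNA vehicle replicate 1 the vehicle call was lost (adjusted p = 0.0624).

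With vehicle, Gins2 was at 83.7, 49.3 and 50.3 normalized reads in Brg1 siRNA cells, against 91.2, 95.3 and 139.8 in control siRNA cells. With LPS, Gins2 was at 39.9, 57.3 and 42.1 in Brg1 siRNA cells, against 38.3, 46.3 and 43.9 in control siRNA cells. With Dex+LPS, Gins2 was at 48.0, 35.7, 24.6 and 31.4 in Brg1 siRNA cells, against 48.0, 78.0, 41.7 and 42.1 in control siRNA cells. The arms were apart only in vehicle, where control siRNA replicate 3 was the highest library. Log2 differences of Gins2 were -0.84 ± 0.28 in vehicle, 0.10 ± 0.28 in LPS and -0.56 ± 0.24 in Dex+LPS (SE; limma adjusted p = 0.0422, 0.825 and 0.0829). The vehicle call was lost without any 1 of the control siRNA replicates or without Brg1 siRNA replicate 2 or 3 (adjusted p up to 0.178). Gse1 lies on the opposite strand over 67.3% of the Gins2 exons, and since the strand of counting is not stated, its reads cannot be told apart from those of Gins2; Gse1 itself was at 0.52, -0.08 and -0.17 and was not called in these comparisons. Gins1 fell in Dex+LPS, at -1.41 ± 0.24 (adjusted p = 0.000175), with means of 5.53 ± 0.808 normalized reads in Brg1 siRNA and 17.1 ± 6.60 in control siRNA cells (SD, n = 4 each), so few reads stood behind it. Gins3 fell in LPS (-0.73) and Dex+LPS (-0.80), the LPS call being lost without control siRNA replicate 1 or 3 or Brg1 siRNA replicate 1 or 2 (adjusted p up to 0.166). Cdc45 fell in vehicle (-0.87) and Dex+LPS (-0.93), and the vehicle call was lost without any 1 of the control siRNA replicates or without Brg1 siRNA replicate 2 or 3 (adjusted p up to 0.13).

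Of the 6 primase and polymerase genes 4 fell in vehicle, where 10.8% of all genes were called lower. In LPS 1 fell and 1 rose, and in Dex+LPS 1 fell and 1 rose. These single calls are near the shares of all genes, 15.8% lower and 17.3% higher in LPS and 15.3% and 19.0% in Dex+LPS. Medians of the 6 genes were -0.64, -0.51 and -0.08. Pola2 encodes the B subunit of polymerase alpha and primase, and Prim2 the large primase subunit. Pola2 in vehicle gave 223, 204 and 223 normalized reads with Brg1 siRNA, against 227, 217 and 179 with control siRNA. Pola2 in LPS gave 274, 270.4 and 269 with Brg1 siRNA, against 216, 191 and 220.3 with control siRNA. Pola2 in Dex+LPS gave 214, 297, 299 and 291 with Brg1 siRNA, against 205, 208, 224 and 239 with control siRNA. Pola2 in LPS was higher in every Brg1 siRNA library, in Dex+LPS it was higher in 3 of the 4 with replicate 1 inside the control range, and in vehicle the arms overlapped. Log2 differences of Pola2 were 0.07 ± 0.12 in vehicle, 0.38 ± 0.12 in LPS and 0.32 ± 0.11 in Dex+LPS (SE; limma adjusted p = 0.777, 0.024 and 0.0268), so that it rose in LPS and in Dex+LPS. The LPS call was lost without control siRNA replicate 2 or any 1 of the Brg1 siRNA replicates (adjusted p up to 0.0973), and the Dex+LPS call without control siRNA replicate 1 or 2 or Brg1 siRNA replicate 2, 3 or 4 (up to 0.0838).

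Prim2 had 95.7, 94.6 and 94.6 normalized reads in the Brg1 siRNA libraries with vehicle, against 149, 151 and 148 in the control siRNA libraries. In LPS, Prim2 had 59.8, 66.0 and 53.4 with Brg1 siRNA, against 85.7, 85.6 and 56.7 with control siRNA. In Dex+LPS, Prim2 had 70.9, 84.7, 82.3 and 74.8 with Brg1 siRNA, against 122, 119.7, 98.7 and 113 with control siRNA. Prim2 arms were apart in vehicle and in Dex+LPS and overlapped in LPS through control siRNA replicate 3. Log2 differences of Prim2 were -0.65 ± 0.15 in vehicle, -0.32 ± 0.15 in LPS and -0.53 ± 0.13 in Dex+LPS (SE; limma adjusted p = 0.00387, 0.105 and 0.00334), and the 2 calls, in vehicle and in Dex+LPS, held in every run with 1 library left out. Pola1, the catalytic subunit of polymerase alpha, is named after its values were seen. With vehicle, Pola1 was at 119, 106 and 92.1 normalized reads in Brg1 siRNA cells, against 149.8, 171 and 171 in control siRNA cells. With LPS, Pola1 was at 27.4, 18.7 and 30.7 in Brg1 siRNA cells, against 68.8, 50.9 and 70.6 in control siRNA cells. With Dex+LPS, Pola1 was at 80.1, 70.2, 55.6 and 52.6 in Brg1 siRNA cells, against 50.7, 64.1, 72.2 and 47.4 in control siRNA cells. Brg1 siRNA libraries were lower without overlap in vehicle and in LPS, and in Dex+LPS the arms mixed. Log2 differences of Pola1 were -0.63 ± 0.21 in vehicle, -1.29 ± 0.21 in LPS and 0.14 ± 0.18 in Dex+LPS (SE; limma adjusted p = 0.044, 0.000143 and 0.606). Leaving out any 1 of the 6 vehicle libraries lost the vehicle call (adjusted p up to 0.163), and the LPS call held in every run.

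Pole, the catalytic subunit of the leading strand polymerase, fell in vehicle, at -1.43 ± 0.34 (adjusted p = 0.00525) and was at -0.70 and -0.51 in LPS and Dex+LPS, not called. Prim1, the catalytic primase subunit, fell in vehicle (-0.68, adjusted p = 0.0297), a call lost without any 1 of the 6 vehicle libraries (up to 0.0895). Pold1, the catalytic subunit of polymerase delta, was at 0.08, -0.83 and 0.29 and was not called.

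The clamp and its loader held 2 of the 3 genes that rose in any treatment, Pcna and Rfc3. In vehicle 1 of 5 fell, in LPS 2 rose, and in Dex+LPS 2 fell and 1 rose, with medians of -0.26, 0.37 and -0.05. Of all genes 10.8% were called lower in vehicle, 17.3% higher in LPS, and 15.3% lower and 19.0% higher in Dex+LPS. These few calls are not read as a result about the role. Pcna is the sliding clamp that holds the polymerases on DNA. Pcna in vehicle gave 6192, 6084 and 5968 normalized reads with Brg1 siRNA, against 7684, 7085 and 7156 with control siRNA. Pcna in LPS gave 3072, 2575 and 2906 with Brg1 siRNA, against 2411, 2469 and 2238 with control siRNA. Pcna in Dex+LPS gave 2288, 2304, 2274 and 1993 with Brg1 siRNA, against 2186, 2691, 2353 and 2010.1 with control siRNA. Brg1 siRNA libraries were below the control libraries in vehicle, above them in LPS and mixed with them in Dex+LPS. Log2 differences of Pcna were -0.26 ± 0.09 in vehicle, 0.26 ± 0.09 in LPS and -0.05 ± 0.08 in Dex+LPS (SE; limma adjusted p = 0.0449, 0.0315 and 0.627): a small fall in vehicle and a small rise in LPS. The vehicle call was lost without any 1 of the 6 libraries (adjusted p up to 0.159) and the LPS call without control siRNA replicate 1 or 3 or Brg1 siRNA replicate 1 or 3 (up to 0.136). Of the Pcna sequence, 23.3% also occurs in the pseudogene Pcna-ps2.

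Rfc3 had 226, 169.7 and 155 normalized reads in the Brg1 siRNA libraries with vehicle, against 182, 189.8 and 159.9 in the control siRNA libraries. In LPS, Rfc3 had 229, 199 and 257 with Brg1 siRNA, against 132, 171 and 138 with control siRNA. In Dex+LPS, Rfc3 had 156, 181, 142 and 137 with Brg1 siRNA, against 107, 131, 116 and 97.9 with control siRNA. Rfc3, a subunit of the clamp loader, overlapped in vehicle, and in LPS and Dex+LPS every Brg1 siRNA library was above every control library. Log2 differences of Rfc3 were 0.04 ± 0.16 in vehicle, 0.63 ± 0.16 in LPS and 0.44 ± 0.14 in Dex+LPS (SE; limma adjusted p = 0.919, 0.00461 and 0.0185), a rise of 1.55-fold in LPS and 1.36-fold in Dex+LPS. The rise in LPS held in every run, and the rise in Dex+LPS was lost without control siRNA replicate 4 or Brg1 siRNA replicate 2 (adjusted p up to 0.069). Rfc4 and Rfc5 fell in Dex+LPS, at -0.57 ± 0.21 and -0.70 ± 0.24 (adjusted p = 0.046 and 0.0313), so subunits of 1 complex were called in both directions in the same cells. The Rfc4 call was lost without control siRNA replicate 1, 2 or 4 or Brg1 siRNA replicate 1, 2 or 3 (up to 0.14), and the Rfc5 call without control siRNA replicate 3 or 4 or Brg1 siRNA replicate 1, 2 or 3 (up to 0.112). Rfc2 was at 0.68, 0.37 and 0.20 and was not called by limma, and its Brg1 siRNA libraries were all above the control libraries in vehicle. Rfc2 was called higher in vehicle by DESeq2 (adjusted p = 0.0144), with the replicate block (0.0259), with the number range as a term (0.0327) and with only the compared groups in the fit (0.00871).

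RPA, which coats single-stranded DNA, fell in most comparisons: both subunits in vehicle and in Dex+LPS, and Rpa2 in LPS. With vehicle, Rpa2 was at 108, 109 and 106 normalized reads in Brg1 siRNA cells, against 182, 179.8 and 174 in control siRNA cells. With LPS, Rpa2 was at 116, 112 and 116 in Brg1 siRNA cells, against 135, 141 and 187 in control siRNA cells. With Dex+LPS, Rpa2 was at 184, 178, 190.2 and 223 in Brg1 siRNA cells, against 217, 313, 277 and 258 in control siRNA cells. Rpa2 arms were apart in vehicle and LPS, and in Dex+LPS Brg1 siRNA replicate 4 reached into the control range. Log2 differences of Rpa2 were -0.73 ± 0.13 in vehicle, -0.41 ± 0.13 in LPS and -0.45 ± 0.12 in Dex+LPS (SE; limma adjusted p = 0.000618, 0.0233 and 0.00567). The LPS call was lost without control siRNA replicate 3 or Brg1 siRNA replicate 2 (adjusted p up to 0.144), both libraries of the higher number range. Rpa1 in vehicle gave 682, 701 and 613 normalized reads with Brg1 siRNA, against 772, 829 and 888 with control siRNA. Rpa1 in LPS gave 177, 194 and 191 with Brg1 siRNA, against 201, 193 and 241 with control siRNA. Rpa1 in Dex+LPS gave 309, 312, 303 and 344 with Brg1 siRNA, against 411, 363, 461 and 439 with control siRNA. Rpa1 was lower in every Brg1 siRNA library in vehicle and Dex+LPS, and the arms overlapped in LPS. Log2 differences of Rpa1 were -0.32 ± 0.10 in vehicle, -0.17 ± 0.10 in LPS and -0.40 ± 0.09 in Dex+LPS (SE; limma adjusted p = 0.0311, 0.219 and 0.00168), and its vehicle call was lost without control siRNA replicate 2 or 3 or Brg1 siRNA replicate 1 or 3 (up to 0.144).

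Lagging strand maturation was the role with no call in any of the 3 knockdown comparisons by limma, edgeR or DESeq2, and 0 of its 2 genes reached an unadjusted p under 0.05 in any of them. Fen1, the flap endonuclease, had the smallest mean knockdown change of the 40 genes. Fen1 had 325, 335 and 356 normalized reads in the Brg1 siRNA libraries with vehicle, against 416, 397 and 358 in the control siRNA libraries. In LPS, Fen1 had 132, 186 and 183 with Brg1 siRNA, against 138, 125 and 163 with control siRNA. In Dex+LPS, Fen1 had 269, 284, 271 and 314 with Brg1 siRNA, against 219, 304, 258 and 269 with control siRNA. In vehicle the Brg1 siRNA libraries were all just below the controls, and elsewhere the arms overlapped. Log2 differences of Fen1 were -0.20 ± 0.14 in vehicle, 0.23 ± 0.14 in LPS and 0.12 ± 0.12 in Dex+LPS (SE; limma adjusted p = 0.349, 0.224 and 0.463). Tmem258 and Gm10143 lie opposite 84.2% of the Fen1 exons, so its value is uncertain where strand was not used, and Tmem258 was at -0.19, 0.04 and -0.17 and not called. With vehicle, Lig1 was at 191, 212 and 162 normalized reads in Brg1 siRNA cells, against 289, 283 and 224 in control siRNA cells. With LPS, Lig1 was at 67.3, 84.7 and 34.1 in Brg1 siRNA cells, against 90.2, 94.9 and 52.4 in control siRNA cells. With Dex+LPS, Lig1 was at 45.8, 61.3, 105 and 71.1 in Brg1 siRNA cells, against 83.4, 90.8, 72.2 and 81.9 in control siRNA cells. Lig1, the ligase that seals Okazaki fragments, was lower in vehicle without overlap, and its replicates scattered in the other treatments. Log2 differences of Lig1 were -0.49 ± 0.31 in vehicle, -0.39 ± 0.31 in LPS and -0.27 ± 0.26 in Dex+LPS (SE; limma adjusted p = 0.304, 0.353 and 0.468), none of them called.

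Chromatin factors at the fork gave 2 falls of 3 in vehicle and 1 each in LPS and Dex+LPS, with medians of -0.93, -0.09 and -0.55. Chaf1a is the large subunit of the CAF-1 complex, which places new histones behind the fork. Chaf1a in vehicle gave 117, 108 and 88.7 normalized reads with Brg1 siRNA, against 235, 185 and 179 with control siRNA. Chaf1a in LPS gave 19.9, 28.7 and 14.8 with Brg1 siRNA, against 49.6, 57.8 and 57.8 with control siRNA. Chaf1a in Dex+LPS gave 52.6, 55.7, 68.4 and 50.8 with Brg1 siRNA, against 124, 123, 114 and 122 with control siRNA. Brg1 siRNA libraries were lower than all controls in all 3 treatments. Log2 differences of Chaf1a were -0.93 ± 0.19 in vehicle, -1.39 ± 0.19 in LPS and -1.08 ± 0.17 in Dex+LPS (SE; limma adjusted p = 0.00185, 2.2e-05 and 5.78e-05), or 1.90-, 2.62- and 2.12-fold lower. These calls held in every run with 1 library left out. Ubxn6 lies opposite 52.5% of the Chaf1a exons, and it was at 0.26, 0.17 and -0.00 in the 3 comparisons and not called.

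Uhrf1 had 85.3, 82.1 and 144 normalized reads in the Brg1 siRNA libraries with vehicle, against 287, 264 and 249.9 in the control siRNA libraries. In LPS, Uhrf1 had 56.1, 66.0 and 65.9 with Brg1 siRNA, against 73.3, 49.7 and 81.3 with control siRNA. In Dex+LPS, Uhrf1 had 28.6, 47.9, 72.7 and 66.5 with Brg1 siRNA, against 58.0, 66.3, 85.5 and 95.6 with control siRNA. Uhrf1, which brings the maintenance methylase Dnmt1 to new DNA, was apart between arms in vehicle and overlapped in LPS and in Dex+LPS. Log2 differences of Uhrf1 were -1.40 ± 0.30 in vehicle, -0.09 ± 0.30 in LPS and -0.55 ± 0.26 in Dex+LPS (SE; limma adjusted p = 0.00223, 0.852 and 0.11), of which the first was called. The interaction of knockdown and LPS was 1.31 ± 0.42 for Uhrf1 (adjusted p = 0.0525) and was not called. Of the Uhrf1 sequence, 24.2% also occurs in 3 other genes, 21.9% in the predicted gene Gm5648. Chaf1b, the middle subunit of CAF-1, was at -0.39, -0.06 and -0.28 and was not called.

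The second comparison set LPS against vehicle within each siRNA, and here nearly all of the 40 genes fell. With Brg1 siRNA 33 fell and 1 rose, where 37.4% of all genes tested were called lower and 35.4% higher. With control siRNA 34 fell and none rose by limma (0 also at an unadjusted p under 0.05, by edgeR and by DESeq2), where 37.0% of all genes were called lower and 36.0% higher. Median log2 differences of the 40 genes were -1.66 with Brg1 siRNA and -1.82 with control siRNA, against -0.05 and -0.04 over all genes. Between LPS and vehicle the libraries did not overlap for 35 genes with Brg1 siRNA (33 lower, 2 higher) and 35 with control siRNA (all lower). Of all genes tested, 40.5% lay lower and 38.3% higher without overlap with Brg1 siRNA, and 39.3% and 38.3% with control siRNA. The same 33 genes fell in both arms. Of all genes at most 37.0%, the share called lower with control siRNA, can have done so. Gins2 was called with control siRNA and not with Brg1 siRNA (-0.36 with Brg1 siRNA, adjusted p = 0.254, and -1.30 with control siRNA, 0.000438), a difference that the interaction did not call (0.94, adjusted p = 0.151). Gse1, on the opposite strand to Gins2, was at -0.84 with Brg1 siRNA and -0.24 with control siRNA (adjusted p = 0.000966 and 0.286). Over the 40 genes the 2 responses, which share no libraries, correlated at r = 0.86 (rho = 0.83), a description only.

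Rrm2 gave the largest fall in both arms, at -3.56 ± 0.24 with Brg1 siRNA and -4.30 ± 0.24 with control siRNA on the log2 scale (limma adjusted p = 2.19e-10 and 1.36e-11). Its libraries with LPS all held fewer than 22 normalized reads, against 115 or more with vehicle, as listed above. Mcm6 fell, at -2.67 ± 0.09 and -2.63 ± 0.09, and Tk1 at -2.54 ± 0.29 and -2.58 ± 0.29, with Brg1 and control siRNA. Pcna fell, at -1.10 ± 0.09 with Brg1 siRNA and -1.62 ± 0.09 with control siRNA. By role, 7 of 8 MCM genes fell in each arm, 4 of 5 with Brg1 siRNA and 5 of 5 with control siRNA among Cdc45 and GINS, 4 of 5 nucleotide synthesis genes in each, and all 3 chromatin factors and both lagging strand genes in each. Medians by role with Brg1 and control siRNA were -2.02 and -2.16 for the MCM genes, -1.40 and -1.95 for Cdc45 and GINS, -1.94 and -2.58 for nucleotide synthesis and -0.86 and -1.10 for RPA.

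A few genes did not follow. Rpa2 was at 0.09 with Brg1 siRNA and -0.22 with control siRNA (adjusted p = 0.551 and 0.139), whereas Rpa1, its partner, fell, at -1.82 ± 0.10 and -1.97 ± 0.10. Tyms was at -0.44 and 0.23 (adjusted p = 0.141 and 0.447), whereas Rrm1, Rrm2, Dut and Tk1 fell in both arms. Rfc3 was at 0.33 and -0.27 (adjusted p = 0.0719 and 0.129), whereas Rfc2, Rfc4 and Rfc5 fell in both. Pola2 rose by 0.32 ± 0.12 with Brg1 siRNA (adjusted p = 0.0243) and was at 0.02 with control siRNA, whereas Pola1, Prim1 and Prim2, the other subunits of its complex, fell in both. Pola2 in Brg1 siRNA cells lost its call without vehicle replicate 2 or LPS replicate 1 (up to 0.0836). Orc1 and Mcm5, both low, were not called. Uhrf1 with Brg1 siRNA was at -0.67 at the edge of the threshold, and its call was lost without vehicle replicate 3 or any 1 of the LPS replicates (adjusted p up to 0.247).

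Leaving out each library kept 30 of the 33 falls with Brg1 siRNA and 33 of the 34 with control siRNA in every run. Besides Uhrf1, the calls lost were those of Orc6 with Brg1 siRNA (without vehicle replicate 2 or 3 or LPS replicate 1, adjusted p up to 0.0601), Rfc5 with Brg1 siRNA (without vehicle replicate 3 or LPS replicate 1 or 2, up to 0.109) and Orc6 with control siRNA (without vehicle replicate 1 or LPS replicate 3, up to 0.0725). Calls gained were Rpa2 with control siRNA without LPS replicate 3 (-0.37, adjusted p = 0.0188), Tyms with Brg1 siRNA without vehicle replicate 3 (-0.71, 0.0248), and Rfc3 with Brg1 siRNA without vehicle replicate 1 or LPS replicate 2 (0.48 and 0.42, 0.013 and 0.0397). Without the 4 libraries of the higher number range, 32 fell with Brg1 siRNA and 34 with control siRNA. With library totals as the scaling the median of all genes shifted, with values of -0.67 with Brg1 siRNA and -0.57 with control siRNA, and 38 and 37 of the 40 genes were called lower, with none higher. The share called higher among all calls was 48.7% with Brg1 siRNA and 49.3% with control siRNA, and 23.2% and 26.2% with library totals. Under that scaling Pola2 was at -0.35 and -0.56 with Brg1 and control siRNA, and Rfc3 and Rpa2 with Brg1 siRNA at -0.35 and -0.58, the opposite sign to the values above.

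The third comparison set Dex+LPS against LPS alone, and more than 20 of the 40 genes rose in each arm. With Brg1 siRNA 21 rose and 4 fell, where 21.3% of all genes were called higher and 23.0% lower. With control siRNA 22 rose and 3 fell, where 23.4% of all genes were called higher and 25.2% lower. Median log2 differences were 0.45 with Brg1 siRNA and 0.62 with control siRNA, against -0.02 and -0.01 over all genes. These responses use the same LPS libraries as the LPS responses of the same siRNA, so the values of the 2 are given side by side and their opposite signs are not read as a result. In both arms 18 genes rose, Orc6, Mcm2, Mcm3, Mcm4, Mcm7, Mcm8, Cdc45, Gins3, Gins4, Prim1, Prim2, Rfc4, Rpa1, Rpa2, Fen1, Rrm1, Rrm2 and Chaf1a, and 3 fell, Cdt1, Mcm10 and Rfc3. Of all genes at most 21.3% can have risen in both arms and at most 23.0% fallen, the shares called with Brg1 siRNA. Libraries of Dex+LPS and LPS did not overlap for 21 genes with Brg1 siRNA (17 higher, 4 lower) and 23 with control siRNA (20 higher, 3 lower). Among all genes tested 21.8% lay higher and 25.0% lower without overlap with Brg1 siRNA, and 22.1% and 24.7% with control siRNA.

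Rrm2 rose by 1.66 ± 0.23 with Brg1 siRNA and 2.60 ± 0.23 with control siRNA (limma adjusted p = 8.64e-06 and 2.51e-08), the largest rise among the 40 with control siRNA. Its difference between arms, the interaction of knockdown and Dex, was -0.93 ± 0.32 (adjusted p = 0.126) and was not called. Gins3 rose by 1.76 ± 0.23 and 1.83 ± 0.23, Chaf1a by 1.43 ± 0.18 and 1.12 ± 0.18 and Mcm8 by 1.28 ± 0.22 and 1.48 ± 0.22 with Brg1 and control siRNA. Rrm2 stayed under the vehicle level, and in Dex+LPS was at 8.73% of control vehicle with Brg1 siRNA and 30.4% with control siRNA. Mcm6 rose by 0.37 ± 0.09 with Brg1 siRNA (adjusted p = 0.00179) and was at 0.17 with control siRNA (adjusted p = 0.124), with no difference called between arms (0.21, adjusted p = 0.45). Tk1 rose by 0.76 ± 0.27 with control siRNA (adjusted p = 0.0291) and was at 0.44 with Brg1 siRNA (adjusted p = 0.205); its call was lost without control siRNA LPS replicate 1 or 2 or Dex+LPS replicate 3 or 4 (up to 0.119).

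Cdt1 fell in Dex+LPS against LPS, at -1.65 ± 0.27 with Brg1 siRNA and -1.20 ± 0.27 with control siRNA (adjusted p = 7.98e-05 and 0.00142), and its libraries did not overlap between the 2 treatments in either arm. Mcm10 fell, at -0.41 ± 0.15 and -0.94 ± 0.15 (adjusted p = 0.0339 and 4.39e-05), against the rises of Mcm2, Mcm3, Mcm4, Mcm7 and Mcm8. The Mcm10 call with Brg1 siRNA was lost without any 1 of the LPS replicates or without Dex+LPS replicate 1, 2 or 4 (up to 0.11). Rfc3 fell, at -0.57 ± 0.15 and -0.37 ± 0.15 (adjusted p = 0.00425 and 0.0438), against the rise of Rfc4, and its call with control siRNA was lost without LPS replicate 2 or 3 or Dex+LPS replicate 1, 3 or 4 (up to 0.208). Pcna fell with Brg1 siRNA, at -0.36 ± 0.08 (adjusted p = 0.00174) and was at -0.05 with control siRNA (adjusted p = 0.688). With library totals as the scaling Pcna with control siRNA was at 0.25, the opposite sign.

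Leaving out each library kept 16 of 21 rises and 3 of 4 falls with Brg1 siRNA, and 17 of 22 rises and 2 of 3 falls with control siRNA. With Brg1 siRNA the rises lost were Cdc45 (without LPS replicate 1), Prim1 (LPS replicate 1 or 3), Prim2 (LPS replicate 1 or 3 or Dex+LPS replicate 2 or 3), Pold1 (LPS replicate 1 or 3 or Dex+LPS replicate 1 or 4) and Rfc4 (LPS replicate 3), with adjusted p of up to 0.102, 0.0862, 0.13, 0.125 and 0.0504. With control siRNA, besides Tk1, they were Mcm7 (LPS replicate 2 or 3 or Dex+LPS replicate 2), Gins1 (LPS replicate 1 or 2 or Dex+LPS replicate 4), Prim1 (LPS replicate 3) and Dut (LPS replicate 1 or 3 or Dex+LPS replicate 1, 2 or 3), with adjusted p of up to 0.155, 0.132, 0.072 and 0.192. Calls gained with Brg1 siRNA were Chaf1b without LPS replicate 3 or Dex+LPS replicate 2 (0.54 and 0.49, adjusted p = 0.036 and 0.049), and Mcm5 and Rfc5 without Dex+LPS replicate 4 (-2.51 and -0.71, 0.0333 and 0.0335). With control siRNA they were Rfc2 without Dex+LPS replicate 3 (0.56, adjusted p = 0.0411) and Rfc5 without LPS replicate 2 or Dex+LPS replicate 1 or 2 (0.70 to 0.85, up to 0.049). Without the 4 libraries of the higher number range 21 rose and 4 fell with Brg1 siRNA, and 21 rose and 2 fell with control siRNA. Under library totals the median of all genes moved by 0.32 with Brg1 siRNA and 0.29 with control siRNA, 25 and 27 of the 40 genes were called higher, and 1 and 2 lower. The share called higher among all calls was 48.1% with Brg1 siRNA and 48.2% with control siRNA, and 81.4% and 76.2% with library totals.

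**Figure D5:**
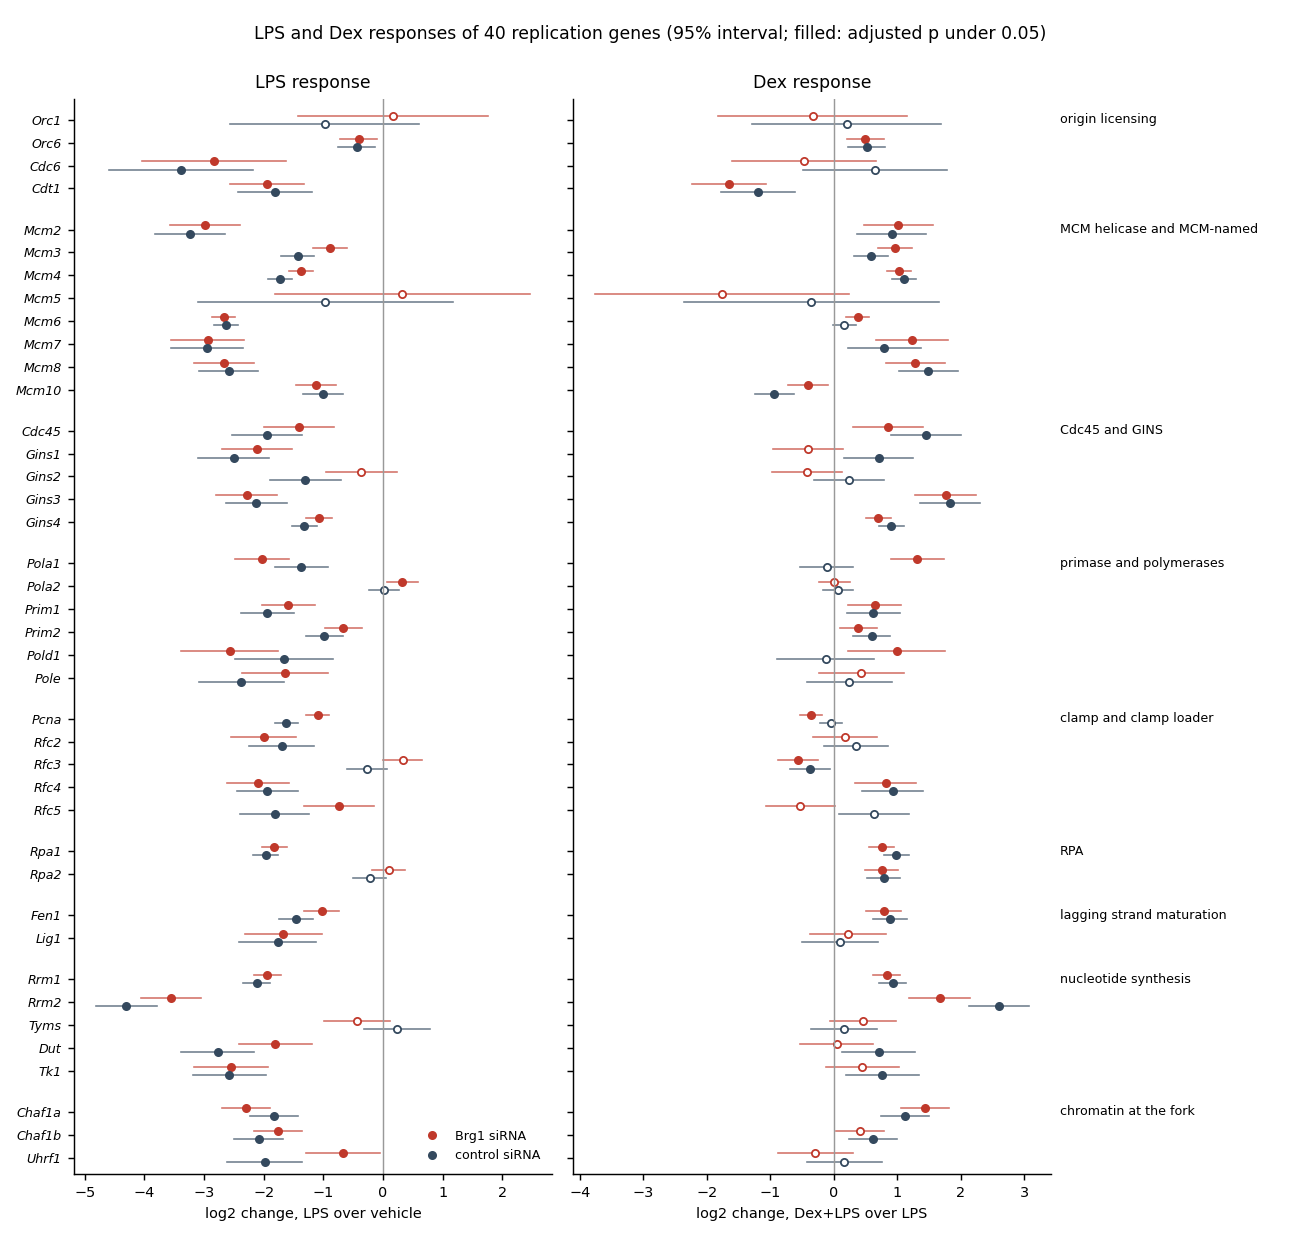
Log2 difference of LPS against vehicle and of Dex+LPS against LPS for the 40 genes, by role, with Brg1 siRNA in red above control siRNA in dark; filled points were called. The LPS panel lies mostly below 0 (33 and 34 genes lower) and the Dex panel mostly above it (21 and 22 genes higher).

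Whether Brg1 siRNA changed the responses themselves was tested by the interaction terms. For LPS 1 of the 40 genes was called, with a positive term, where 6.39% of all genes were called higher and 5.05% lower. For Dex 1 was called, also positive, where 2.75% of all genes were called higher and 1.22% lower. The median term was 0.31 for LPS, with 29 of 40 positive, and -0.14 for Dex, with 28 of 40 negative, against 0.02 and 0.01 over all genes. Of all 12061 genes tested, 6260 had a positive term for LPS and 5933 a negative term for Dex. Both terms use the knockdown difference in LPS, with opposite signs, so opposite signs of the 2 terms are not read as a result. The LPS gene was Pcna, at 0.53 ± 0.13 (limma adjusted p = 0.0101): it fell less in Brg1 siRNA cells (-1.10) than in control siRNA cells (-1.62). The Dex gene was Pola1, at 1.43 ± 0.28 (adjusted p = 0.0062): it rose in Brg1 siRNA cells (1.31, adjusted p = 3.32e-05) and was at -0.12 in control siRNA cells (adjusted p = 0.664). Pola1 in LPS held 18.7 to 30.7 normalized reads with Brg1 siRNA, so that this rise started at few reads, and in Dex+LPS the arms overlapped. Both calls held when any 1 library was left out, with adjusted p of up to 0.033 and 0.0224. Rrm2 gained a call in both terms without Brg1 siRNA LPS replicate 1, at 1.06 for LPS and -1.25 for Dex (adjusted p = 0.0264 and 0.0161), and Fen1 did so for LPS (0.59, 0.0436). For LPS, Mcm3 and Dut were called without Brg1 siRNA LPS replicate 2 (0.65 and 1.36, adjusted p = 0.0392 and 0.0153) and Rfc5 without control siRNA LPS replicate 2 (1.30, 0.0437). Rfc3 was called for LPS without Brg1 siRNA vehicle replicate 1 (0.76, adjusted p = 0.034), Uhrf1 without Brg1 siRNA vehicle replicate 3 (1.57, 0.025), and Rfc5 for Dex without Brg1 siRNA Dex+LPS replicate 4 (-1.34, 0.0387). Without the 4 libraries of the higher number range the Pola1 term was 1.14 (adjusted p = 0.0557) and none of the 40 was called for Dex. Among all calls for LPS the share called higher was 55.9%, and 38.1% with library totals.

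The 14 genes with an E2F spelling and the 19 matched genes without one are set side by side here as a description only. In the knockdown the medians were -0.60 with a spelling and -0.68 without in vehicle, -0.33 and -0.41 in LPS and -0.52 and -0.47 in Dex+LPS. The genes called lower were 5 of 14 with and 12 of 19 without a spelling in vehicle, 4 of 14 and 8 of 19 in LPS and 3 of 14 and 12 of 19 in Dex+LPS, a difference that was not tested. Of all genes 10.8%, 15.8% and 15.3% were called lower in these treatments. Genes with few reads lay in both groups, Orc1, Cdc6 and Mcm5 with a spelling and Dut without one among them. The part of read level in these counts was not tested. The LPS responses had medians of -1.99 with and -1.59 without a spelling in Brg1 siRNA cells, and -1.79 and -1.94 in control siRNA cells. For the Dex responses they were 0.29 and 0.64 in Brg1 siRNA cells, with 7 of 14 and 11 of 19 genes called higher, and 0.17 and 0.76 in control siRNA cells, with 4 of 14 and 14 of 19 called higher. Of all genes 21.3% were called higher with Brg1 siRNA and 23.4% with control siRNA. Among the genes printed above, Mcm6 and Pola1 fell with Brg1 siRNA in vehicle, whereas Rfc3, with 2 spellings at its start, rose in LPS and in Dex+LPS.

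Other genes of the same processes, from lists that held none of the 40, were read beside them. Among all genes tested, 10.8%, 15.8% and 15.3% were called lower with Brg1 siRNA in vehicle, LPS and Dex+LPS. Called higher were 9.39%, 17.3% and 19.0%. Of 20 mitotic genes, 17 fell with Brg1 siRNA in vehicle, 16 in LPS and 18 in Dex+LPS, with medians of -0.91, -0.87 and -1.17. In LPS against vehicle 19 of the 20 were called lower in each arm. Of all genes 37.4% were called lower there with Brg1 siRNA and 37.0% with control siRNA. The exception was Mki67, the proliferation antigen, at 3.07 with Brg1 siRNA and 2.37 with control siRNA. Dex+LPS against LPS raised 14 with Brg1 siRNA and 18 with control siRNA, where 21.3% and 23.4% of all genes were called higher. Mki67 was called lower there, at -1.02 and -0.86. Of 31 other replication genes, 5 fell in vehicle, 4 fell and 3 rose in LPS, and 6 fell and 3 rose in Dex+LPS. The leading rises in LPS were Dbf4 (0.48, limma adjusted p = 0.000244) and Donson (0.45, 0.0193). In Dex+LPS they were Mcmbp (0.23, 0.0143) and Pold3 (0.42, 0.0221). Wdhd1, a fork protein that binds polymerase alpha, fell by 0.75 on the log2 scale in vehicle (adjusted p = 0.00634), Pold2, the second subunit of polymerase delta, was at -0.78 and -0.59 in LPS and Dex+LPS (0.00312 and 0.00799), and Dna2, a nuclease that trims flaps, was at -0.96 in Dex+LPS (6.17e-05).

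Of 30 other genes listed under nucleotide synthesis, 10 fell in vehicle, 20 fell and 2 rose in LPS, and 12 fell and 2 rose in Dex+LPS, with medians of -0.14, -0.57 and -0.30. The list is not limited to enzymes that make nucleotides, so a rise of a gene on it is not a rise of synthesis. Impdh2, the rate-limiting enzyme of guanine nucleotide synthesis, was at -0.66, -1.25 and -0.76 in the 3 treatments (limma adjusted p = 3.48e-07, 1.09e-10 and 3.8e-09). Ctps, the CTP synthase, was at -1.28, -1.94 and -1.41 (9.43e-06, 4.09e-08 and 2.49e-07). The genes that rose in LPS were Tk2 (1.93, limma adjusted p = 0.000126) and Ctps2 (0.25, 0.0265). In Dex+LPS they were Rrm2b (0.32, 0.0293) and Samhd1 (0.19, 0.0397). For these 30 the LPS interaction was called negative for 9, where 5.05% of all genes were. The leading ones were Impdh2 at -0.58 and Atic, a purine synthesis enzyme, at -0.49. Under LPS itself 7 rose and 16 fell with Brg1 siRNA, where 35.4% of all genes were called higher and 37.4% lower. With control siRNA 10 rose and 12 fell, near the shares of all genes, 36.0% higher and 37.0% lower. Of 10 genes of replication-coupled chromatin, 5 fell in vehicle, 3 fell and 1 rose in LPS and 3 fell in Dex+LPS, among them the histone chaperone Nasp (-0.58 in vehicle) and the centromeric histone Cenpa (-0.68 in LPS and -1.37 in Dex+LPS).

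Of 22 E2F factors and G1 cyclins and their inhibitors, 2 rose and 5 fell in vehicle, 7 rose and 2 fell in LPS and 6 rose and 3 fell in Dex+LPS. Of all genes 9.39%, 17.3% and 19.0% were called higher in these treatments and 10.8%, 15.8% and 15.3% lower. E2f8, a repressor of E2F targets, fell in vehicle (-0.78, limma adjusted p = 0.000185) and rose in LPS (1.35, 2.29e-07), with an LPS interaction of 2.13 (2.69e-07). E2f2, an activator, was higher with Brg1 siRNA in LPS (3.52, 9.87e-07). With control siRNA E2f2 was at -7.05 in LPS against vehicle (limma adjusted p = 5.38e-12). Its read levels are not given here, so how few reads stood behind the 3.52 is not shown. Ccnd1, cyclin D1, was at -1.09 in LPS and -1.03 in Dex+LPS (0.0038 and 0.0018), and Ccnd3, cyclin D3, at 1.14 in vehicle (6.38e-06). The leading calls in Dex+LPS were rises, of Rbl1 (1.151, limma adjusted p = 8.54e-06) and Ccne1 (1.115, 1.25e-05). Cdkn1a, the cyclin kinase inhibitor p21, rose under LPS by 4.84 with Brg1 siRNA and 4.71 with control siRNA (4.12e-22 and 5.16e-22) and was at -1.56 and -1.54 in Dex+LPS against LPS (3.4e-14 and 2.05e-14).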

How the data were processed

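RNA was measured in 20 libraries of macrophage cultures, grouped by the titles in the labels. The authors deposited, for 17787 genes, a normalized signal per library whose column headers name a DESeq normalization, beside their own log2 fold changes and p-values for 7 comparisons. Salmon 1.4.0, DESeq2, DESeq and R 4.1.0 are the tools, and mm10 and GRCm38.p6 the builds, per the submitters' processing notes; the strand that was counted is not given in the sources used here. Per the labels' protocols the kit is a stranded mRNA kit and rRNA was depleted, so whether polyadenylated RNA was selected is not settled. The series describes 3 replicates a group, but 4 libraries are labelled in each Dex+LPS group.

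The signal was found to be whole reads divided by a size factor: 99.95% of the values lay within 0.01 of a whole number of reads, the largest distance being 0.058. Replicates differed beyond sampling noise (chi-square of 4.197 to 44.788 per gene), so none was counted as a duplicate. Tests used limma with its trend option (version 3.58.1, in R 4.3.3), on log2(value + 1) with all 6 groups in a single fit, over the genes that reached 10 in 3 or more libraries, with adjustment within each of 9 comparisons. edgeR 4.0.16 and DESeq2 1.42.0 on the recovered reads, other scalings, filters and pseudocounts, a replicate block, and each library left out were the alternatives. In the authors' deposited table, 24 of the 40 genes passed an adjusted p of 0.05 as lower with Brg1 siRNA and 1 as higher in vehicle, 9 and 3 in LPS and 16 and 2 in Dex+LPS, and no gene called here had the opposite sign there. The share of all genes that passed in that table was not counted, so its counts are not read as a result. Over the 40 genes the log2 fold changes of the authors' deposited table differed from the ones here by at most 0.140 to 1.00 in a comparison. Start windows came from the RefSeq table of GRCm38.p6. Exon overlap on the opposite strand and shared words of 31 bases were read from the GENCODE vM21 annotation and transcripts.

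The members and the lists were chosen with earlier results of these data known. Values in every library are given for the 2 genes of each role with the highest mean over all libraries, the genes with the largest and smallest mean knockdown change, and every gene called in the direction opposite to most called members of a comparison, and other list genes are named among the 2 with the lowest adjusted p in each direction. Any other gene given library by library was chosen after its values were seen. The pipeline was tested on simulated data.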

Additional observations from a re-analysis of the deposited data

Results flagged for a closer look

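Of 80 groups of 4 libraries looked at (the 40 genes in the 2 Dex+LPS groups), 7 held a library far from the other 3, and chance gives about 1 in 20. In 4 of the 7 the library was replicate 4 of Brg1 siRNA with Dex+LPS, which is of the higher number range: Cdc45 at 40.63, Mcm5 at 20.31 and Rfc5 at 89.57 normalized reads were each the highest of their group, and Pcna at 1993 was the lowest. Pola2 was lowest in replicate 1 of that group, at 213.9, and Rrm2 in replicate 2, at 23.41. Orc1 was highest in replicate 3 of control siRNA with Dex+LPS, at 102.8.

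The knockdown effect differed between LPS and vehicle for Pcna, by 0.53 on the log2 scale, and between Dex+LPS and LPS for Pola1, by 1.43. Both differences were tested as interaction terms, and the limma adjusted p were 0.0101 and 0.0062.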

How the results depend on the processing

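Counts of called genes that moved by more than 1.5 times were mostly small counts of rises. With Brg1 siRNA in vehicle, 1 gene was called higher by DESeq2, with the replicate block, with the number range as a term and with only the compared groups in the fit, against 0. Without each library in turn 13 to 17 fell there, and 10 to 11 in LPS, where 1 to 3 rose; 7 fell in LPS with only the compared groups in the fit, and 1 rose with library totals. In Dex+LPS 0 rose with library totals, 1 with TMM, without the higher number range or with only the compared groups, and 0 to 2 without each library. Under LPS with Brg1 siRNA 0 rose with library totals or TMM, 2 with the number range as a term, and 0 to 2 without each library. Under Dex with Brg1 siRNA 1 fell with library totals. The LPS interaction called 4 genes higher by DESeq2, 3 with a pseudocount of 5, the replicate block or without the higher number range, 2 with a mean of at least 50, the number range as a term or only the compared groups, and 1 to 3 without each library. The Dex interaction called 0 higher without the higher number range, where Pola1 was at 1.14 (adjusted p = 0.0557); it called 1 lower with a pseudocount of 5, DESeq2 or the replicate block, 2 with the number range as a term, and 0 to 1 without each library. With 2 spellings in place of 4, 11 genes and not 14 held an E2F spelling. The causes were not tested.

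With library totals 5 values of single genes changed sign: Pola2 under LPS (-0.35 with Brg1 and -0.56 with control siRNA), Rfc3 and Rpa2 under LPS with Brg1 siRNA (-0.35 and -0.58) and Pcna under Dex with control siRNA (0.25). Besides these 5, 6782 values over the 40 genes, the 9 comparisons and the alternatives kept their side of the threshold. Another 228 lost a call and 104 gained one. Sign changes of values called in neither fit were not counted. Replicate numbers did not pair the libraries: deviations of same-numbered libraries correlated at -0.166 to 0.406, and 1 of 10 pairs was over 0.1. The highest values over all pairs of an arm with the other, 0.406 in Dex+LPS (same number) and 0.207 in LPS (different numbers), were those of the pairs in which both libraries carry the higher number range, so these libraries deviated together. With the replicate block 21, 13 and 20 genes fell with Brg1 siRNA in vehicle, LPS and Dex+LPS.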
